A study of Populus trichocarpa with 18 samples.

Results

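The genes described here code for enzymes of the ring-modifying and final steps of monolignol synthesis in Populus trichocarpa (black cottonwood). They are 8 named gene models, picked by identifier and not by any measured value, out of 40668 loci in the table: the ring hydroxylases C3H3 (POPTR_0006s03180.1), CAld5H1 (POPTR_0005s11950.1) and CAld5H2 (POPTR_0007s13720.1), the O-methyltransferases CCoAOMT1 (POPTR_0009s10270.1), CCoAOMT2 (POPTR_0001s31220.1), CCoAOMT3 (POPTR_0008s13600.1) and COMT2 (POPTR_0012s00670.1), and the cinnamyl alcohol dehydrogenase CAD1 (POPTR_0009s09870.1). The list was drawn up with earlier results of these data known. All 8 were present, each with 1 model, and all 8 passed the filter on low counts, as did 23777 loci in all.

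RNA-seq was done on protoplasts (cells without walls) from stem-differentiating xylem, the tissue of forming wood, of greenhouse-grown plants. By polyethylene glycol transfection, a transient method, every protoplast sample received sGFP, a green fluorescent protein. The control groups carried sGFP alone, and the other groups carried sGFP together with PtrSND1-B1, a transcription factor of the NAC family that acts in secondary wall formation. Both constructs were sampled at transfection times of 7, 12 and 25 h, with 3 libraries in each of the 6 groups and 18 in all. The labels give no plant age, no promoter and no share of protoplasts transfected.

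Monolignols are the alcohols from which plant cells polymerise lignin, the phenolic polymer that stiffens the walls of wood. They differ in how many methoxyl groups their ring carries: hydroxylases of the cytochrome P450 family add hydroxyl groups to the ring, and O-methyltransferases then methylate them. C3H adds the ring hydroxyl group that is the first to be methylated, which CCoAOMT does on the coenzyme A ester, which leads to guaiacyl units, whereas CAld5H adds a further hydroxyl group on the way to syringyl units. CAD reduces the aldehydes to the finished alcohols.

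Total counts ranged from 2690853 to 13970708 per library. POPTR_0014s10060.1, taken as the transfected PtrSND1-B1 partly because of its rise, stood at 418 to 3372 CPM (counts scaled to a common library size) in the 9 PtrSND1-B1 libraries and at 2.09 to 10.3 CPM in the 9 sGFP libraries, and it cannot serve as a separate check on the labels. Whether replicates stem from different plants or protoplast preparations is not in the labels, so each p-value reflects the spread among the libraries alone, and that spread may be technical. In these bulk samples, fewer cells of a type and less RNA per cell cannot be told apart. CPM is not scaled to transcript length, so levels are compared within a gene only.

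Calls among the 8 genes were few between constructs and more frequent between 7 and 25 h, as they were among all genes tested. Without a block, 0.0589% of all genes were called between constructs at 7 h. Between 7 and 25 h, 17.9% were called in sGFP and 16.8% in PtrSND1-B1 protoplasts. CAld5H2 was the gene called between 7 and 25 h when no block was used. In a fit with replicate number as an added term (the number block), CCoAOMT1 and CCoAOMT3 fell in both constructs. There CAld5H1 was called lower in sGFP protoplasts and CAD1 in PtrSND1-B1 protoplasts, but each had a negative estimate in both constructs. Whether the change differed between constructs was tested, and neither gene was called. That fit called 31.9% of all genes between 7 and 25 h in sGFP and 30.8% in PtrSND1-B1. The PtrSND1-B1 effect was called for C3H3 alone, in a fit that compares the constructs inside pairs of libraries. Of all genes, that fit called 3.42% at 7 h and 8.7% as the mean of the 3 times.

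**Figure D1:**
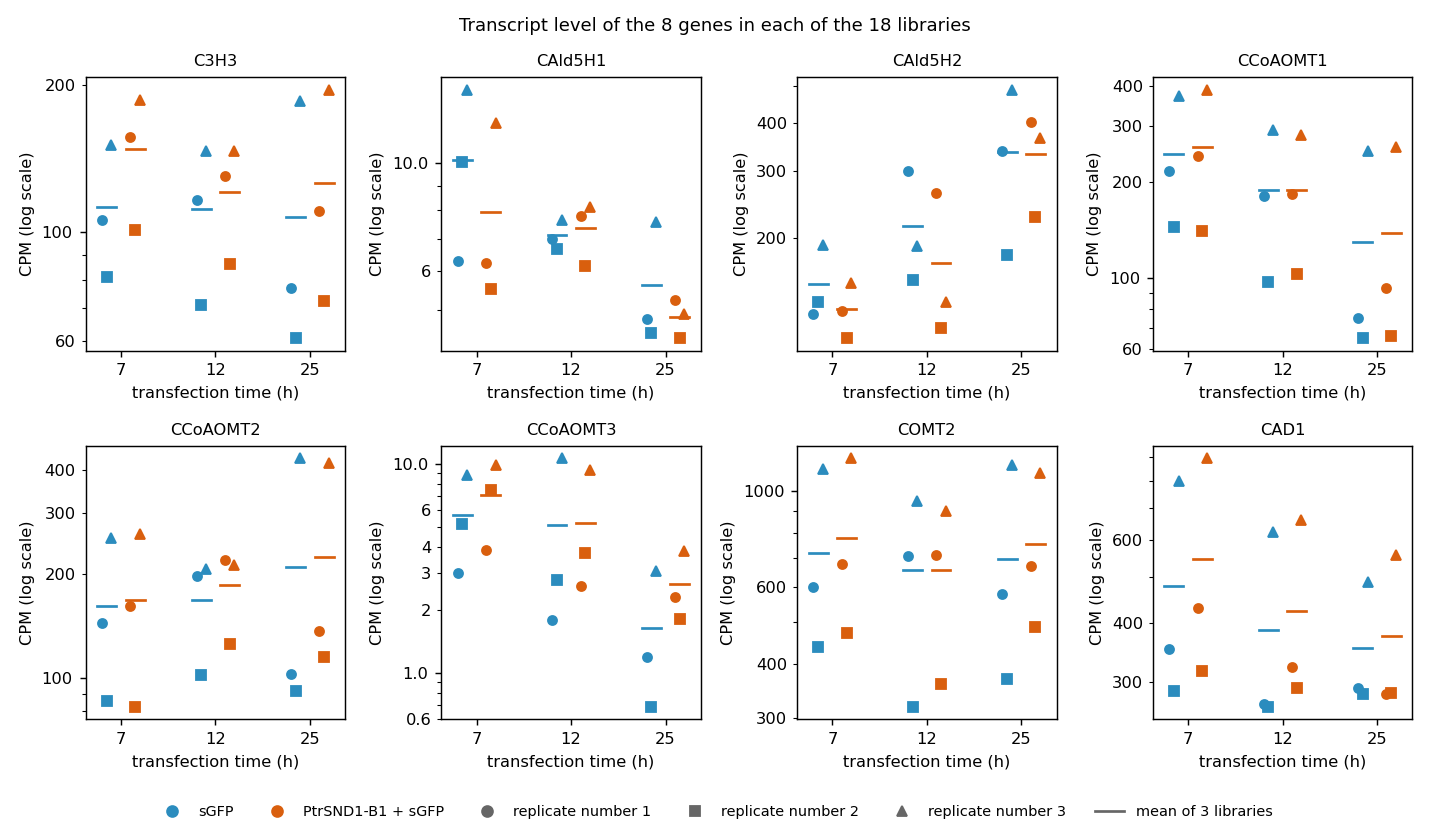
Transcript level of each of the 8 genes in CPM (log axis, a separate scale per gene) against transfection time in hours. Each symbol is a library, blue for sGFP and orange for PtrSND1-B1 with sGFP, its shape gives the replicate number, and bars are means of 3 libraries; the constructs overlap for every gene, the means of CAld5H2 are highest at 25 h, and triangles (number 3) are mostly on top.

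C3H3 is the hydroxylase that opens the route to methoxylated monolignols. At 7 h its level was 106, 81.0 and 151 CPM in sGFP replicates 1, 2 and 3 (113 ± 35.4, SD, n = 3), and 156, 101 and 186 CPM in the PtrSND1-B1 replicates (148 ± 43.2, n = 3). At 12 h the values were 116, 71.1 and 147 CPM in sGFP and 130.4, 86.1 and 146 CPM in PtrSND1-B1. At 25 h they were 77.2, 60.9 and 185 CPM in sGFP and 111, 72.4 and 196 CPM in PtrSND1-B1. Replicate 2 was lowest and replicate 3 highest in all 6 groups, and the groups overlapped throughout, while inside pairs of the same time and number PtrSND1-B1 was the higher library in 8 of 9.

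Compared inside those pairs, the log2 difference of C3H3 was 0.56, 0.32 and 0.30 at 7 h, 0.16, 0.27 and -0.0029 at 12 h, and 0.52, 0.25 and 0.08 at 25 h. The unblocked edgeR fit gave a log2 fold change of 0.39 at 7 h (SE 0.43, 95% interval -0.53 to 1.31, adjusted p = 1.00), smaller than its error. The paired fit, which carries a term for each of the 9 pairs, gave 0.39 (SE 0.09, adjusted p = 0.0253) at 7 h and 0.27 (SE 0.05, 95% interval 0.16 to 0.38, adjusted p = 0.00488) as the mean of the 3 times. The mean rose in all 9 fits that left out a pair (log2 0.22 to 0.32, adjusted p 0.000304 to 0.0222). The call at 7 h was lost when any of the 3 pairs of that time was left out, and it was kept in the other 6 fits. With the number as an additive block, C3H3 was not called at 7 h (0.40, adjusted p = 0.862) or as the mean (0.27, adjusted p = 0.399).

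In the unblocked fit the PtrSND1-B1 effect was called for none of the set. There, 0 of 8 genes were called at 7 h (0.0589% of all genes tested), 0 at 12 h (0.00841%), 0 at 25 h (0.00421%) and 0 as the mean of the times (0.16%). An unadjusted p under 0.05 was reached by 0 of 8 in each of these, and DESeq2 called 0 of 8 in each. The log2 fold changes ran from -0.36 (CAld5H1) to 0.39 (C3H3) at 7 h, with a median of 0.09 against 0.00 for all genes. They ran from -0.32 (CAld5H2) to 0.14 (CCoAOMT2) at 12 h and from -0.22 (CAld5H1) to 0.62 (CCoAOMT3) at 25 h. Intervals in this fit were wide, so changes inside them are not excluded. The widest was -1.05 to 2.28 for CCoAOMT3 at 25 h, a gene with 2 to 71 counts per library. The paired fit gave -0.03 to 1.45 for it.

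In the number-block fit, 0 of 8 were again called at 7 h (0.286% of all genes), 12 h (0.0589%), 25 h (0.00841%) and as the mean (0.938%), with 1, 0, 0 and 1 at an unadjusted p under 0.05. In the paired fit 1 of 8 was called at 7 h (3.42% of all genes), 0 at 12 h (1.26%), 0 at 25 h (0.442%) and 1 as the mean (8.7%), C3H3 both times. One call among 8 genes is close to that last share, so the count says nothing particular about the set. CAD1, which makes the alcohols, came next as the mean (log2 0.14, SE 0.04, adjusted p = 0.0574). CCoAOMT3 had the largest estimate, 0.38 (SE 0.16, adjusted p = 0.160), from counts of 2 to 71 per library. In the paired fit an unadjusted p under 0.05 was reached by 2, 2 and 3 of 8 at 7, 12 and 25 h. As the mean it was reached by 6 of 8, with CAld5H2 lower and the others higher. Among the 23777 genes tested, 3827, 3400, 1949 and 5385 reached it. Whether the set as a whole differed was not tested.

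The paired differences show how the other genes lay. CCoAOMT3 and CAD1 were higher in the PtrSND1-B1 library in 8 of 9 pairs, as C3H3 was, while 7.69% of all genes were higher in at least 8. CCoAOMT1, CCoAOMT2 and COMT2 were higher in 7 of 9 pairs each. The CAld5H copies were higher in 3 of 9 pairs each. CCoAOMT3 differed by 0.77, 1.05 and 0.30 at 25 h, and by 0.46, 0.39 and -0.19 at 12 h. CAld5H2 differed by -0.19, -0.42 and -0.48 at 12 h, and by 0.25, 0.33 and -0.42 at 25 h, where the pair of replicate 3 stood apart from the other two.

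Difference tests between times asked whether the PtrSND1-B1 effect itself varied. Without a block 0 of 8 were called for 12 h minus 7 h, 25 h minus 12 h and 25 h minus 7 h, by edgeR and by DESeq2, with 0 of 8 at an unadjusted p under 0.05 and 0% of all genes called in each. In the paired fit, 0 of 8 were called in each, with 0%, 0% and 0.0673% of all genes, and an unadjusted p under 0.05 was reached by 1 of 8, for 25 h minus 12 h. The pair of replicate 3 at 25 h weighed on this. Without it the effect on CAld5H2 differed between 25 and 12 h (log2 0.63, adjusted p = 0.0264, with 0.518% of all genes called) and between 25 and 7 h (0.49, adjusted p = 0.0391, 1.68%), and CAld5H2 was lower with PtrSND1-B1 at 12 h (-0.35, adjusted p = 0.0113, 3.69%). That fit also called C3H3 (0.42, adjusted p = 0.0424) and CCoAOMT2 (0.38, adjusted p = 0.0371) at 25 h, where 1.58% of all genes were called. CCoAOMT2 and COMT2 were called as the mean (0.20 and 0.15, adjusted p = 0.00788 and 0.0207), where 8.16% of all genes were, close to the share in the fit with every pair. Each of these calls was made in 1 of the 9 fits that left out a pair, the fit described here. The pair left out was the one seen to differ for CAld5H2 at 25 h (-0.42, against 0.25 and 0.33). The CAld5H2 calls without it are therefore no separate test. Leaving out pairs was an alternative added after the data were seen.

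**Figure D2:**
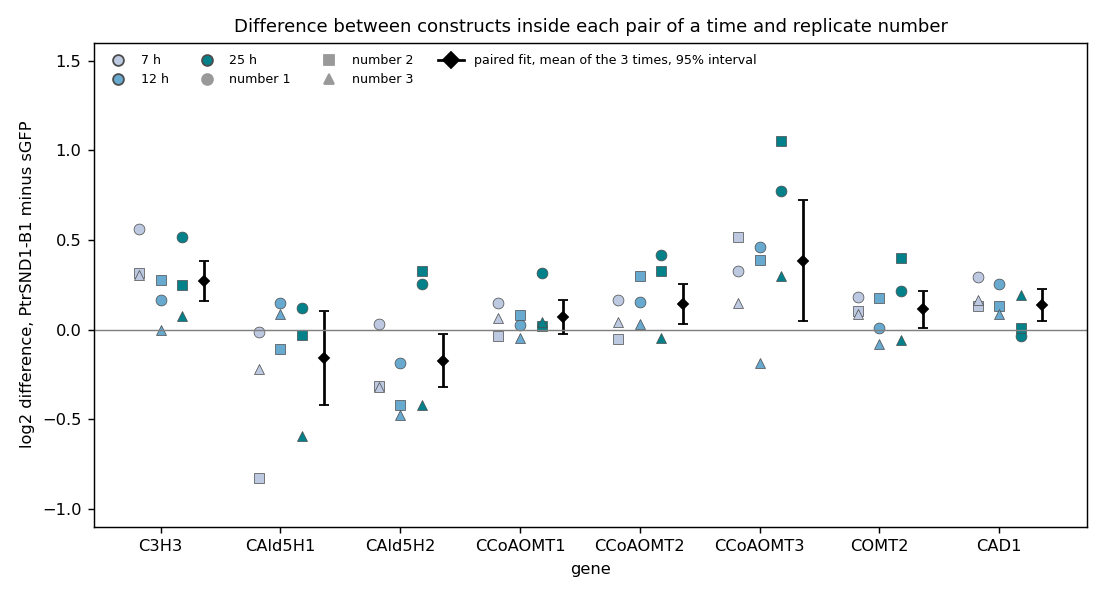
Log2 difference in CPM between the PtrSND1-B1 and the sGFP library of the same time and replicate number, for each of the 8 genes. Colours mark the time, shapes the replicate number, and black diamonds the paired-fit mean of the 3 times with its 95% interval, which is 0.16 to 0.38 for C3H3; for CAld5H2 at 25 h the pair of number 3 lies at -0.42 and the other two above 0.

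CAld5H2, the hydroxylase copy at the entry to syringyl units, rose with time in both constructs. In sGFP protoplasts its level was 127, 137 and 192 CPM at 7 h, 299, 156 and 191 CPM at 12 h, and 339, 182 and 489 CPM at 25 h. In PtrSND1-B1 protoplasts it was 129.7, 110.0 and 153 CPM at 7 h, 263, 117 and 137 CPM at 12 h, and 403, 228 and 364 CPM at 25 h. The 7 and 25 h libraries did not overlap with PtrSND1-B1, and overlapped in sGFP through replicate 2 at 25 h and replicate 3 at 7 h. Each of the 6 steps from 7 to 25 h inside a construct and number was upward, by 0.41 to 1.63 on the log2 scale. Here and for the genes below, the share of all genes with such steps or without overlap was not counted. Libraries of a number were alike in both constructs, so the 6 steps are not independent.

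Without a block the log2 fold change of CAld5H2 from 7 to 25 h was 1.15 in sGFP (SE 0.38, adjusted p = 0.0454) and 1.34 in PtrSND1-B1 (SE 0.38, adjusted p = 0.0238), and it was the 1 gene of 8 called in each. Among all genes 17.9% and 16.8% were called, so 1 of 8 is near the background. In sGFP the call was kept in 7 of 18 fits that left out a library (adjusted p 0.0173 to 0.178, log2 0.78 to 1.45). It was lost without any 7 h sGFP library, sGFP 12 h replicate 3, sGFP 25 h replicate 1 or 3, any 7 h PtrSND1-B1 library or PtrSND1-B1 25 h replicate 1 or 3, and in a fit of the compared groups alone (adjusted p = 0.0862). Where the library left out was not of the compared groups, the adjusted p of a lost call was 0.0508 to 0.0581. In PtrSND1-B1 it was lost without replicate 1 or 2 at 7 h or replicate 1 or 3 at 25 h (adjusted p 0.0580 to 0.0900). With the number as a block the change was 1.06 in sGFP (SE 0.27, adjusted p = 0.00767) and 1.30 in PtrSND1-B1 (SE 0.27, adjusted p = 0.00217), and it was called in all 18 fits of each that left out a library. Each such fit kept the library of the same time and number in the other construct, so these fits are not independent checks. The limit on the p-values of the number block, given above, holds here and for the genes below. In PtrSND1-B1 the step from 12 to 25 h was also called with the block (0.95, SE 0.27, adjusted p = 0.0407).

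CAld5H1, the other copy, was scarce, with 12 to 87 counts per library. It stood at 6.29, 10.1 and 14.2 CPM at 7 h, 7.00, 6.67 and 7.64 CPM at 12 h and 4.79, 4.47 and 7.56 CPM at 25 h in sGFP protoplasts. With PtrSND1-B1 it stood at 6.23, 5.51 and 12.1 CPM, 7.78, 6.15 and 8.14 CPM, and 5.24, 4.37 and 4.90 CPM at the same times. All 6 steps from 7 to 25 h were downward, by 0.23 to 1.24 on the log2 scale. With PtrSND1-B1 every 25 h library lay below every 7 h library, with the limits given for CAld5H2. With the number as a block the log2 fold change was -0.86 in sGFP (SE 0.25, adjusted p = 0.0152) and -0.65 in PtrSND1-B1 (SE 0.27, adjusted p = 0.0832). The sGFP call was lost without replicate 2 or 3 at 7 h or replicate 1 at 25 h. Without a block neither was called (-0.86, adjusted p = 0.0819, and -0.72, adjusted p = 0.170). Whether the constructs differ was tested by the difference of effects above, where CAld5H1 was not called.

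CCoAOMT1, a methyltransferase of the coenzyme A ester, fell in the fit with the number as a block. Its level in sGFP was 217, 145 and 372 CPM at 7 h, 181, 97.5 and 291 CPM at 12 h, and 74.9, 65.0 and 251 CPM at 25 h. With PtrSND1-B1 it was 241, 141 and 389.8 CPM, 184, 103 and 281 CPM, and 93.2, 65.9 and 258 CPM. The value was lower at each later time in every number of both constructs, whereas the groups overlapped because the numbers lay far apart. The log2 fold change from 7 to 25 h with the block was -1.06 in sGFP (SE 0.19, adjusted p = 0.000802) and -1.01 in PtrSND1-B1 (SE 0.19, adjusted p = 0.00125), called in all 18 fits of each that left out a library. Without a block it was -0.91 (SE 0.62, adjusted p = 0.345) and -0.89 (SE 0.62, adjusted p = 0.357).

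CCoAOMT3 had the lowest counts of the set, 2 to 71 per library. In sGFP it was 3.01, 5.14 and 8.89 CPM at 7 h, 1.78, 2.78 and 10.7 CPM at 12 h, and 1.20, 0.688 and 3.06 CPM at 25 h, the 0.688 CPM resting on 2 counts. With PtrSND1-B1 it was 3.86, 7.51 and 9.88 CPM, 2.59, 3.74 and 9.33 CPM, and 2.30, 1.82 and 3.85 CPM. All 6 steps from 7 to 25 h were downward, by 0.66 to 2.39 on the log2 scale. With the block the log2 fold change was -1.66 in sGFP (SE 0.36, adjusted p = 0.00297, called in 18 of 18 fits without a library) and -1.36 in PtrSND1-B1 (SE 0.37, adjusted p = 0.0112, called in 15 of 18). The PtrSND1-B1 call was lost without replicate 2 at 7 h or replicate 2 or 3 at 25 h. Without a block the values were -1.75 (adjusted p = 0.103) and -1.43 (adjusted p = 0.185).

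CCoAOMT2 and COMT2 gave no call between times. CCoAOMT2 in sGFP was 144, 85.5 and 254 CPM at 7 h, 196, 102 and 207 CPM at 12 h, and 103, 91.5 and 432 CPM at 25 h, and with PtrSND1-B1 161, 82.4 and 261 CPM, 219, 125 and 211 CPM, and 137, 115 and 419 CPM. Replicate 3 stood far above the others at 25 h in both constructs. Its log2 fold change from 7 to 25 h with the block was 0.21 in sGFP (95% interval -0.44 to 0.86) and 0.33 in PtrSND1-B1 (-0.32 to 0.98), and 4 of 6 steps were upward. COMT2, which methylates the hydroxyl group added by CAld5H, was 600.0, 437 and 1121 CPM at 7 h, 708, 318 and 951 CPM at 12 h, and 579, 369 and 1148 CPM at 25 h in sGFP. With PtrSND1-B1 it was 679, 470.1 and 1191 CPM, 712, 360.2 and 899 CPM, and 673, 486 and 1103 CPM. Its change from 7 to 25 h was -0.09 in sGFP (95% interval -0.44 to 0.27) and -0.02 in PtrSND1-B1 (-0.37 to 0.33).

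CAD1, the dehydrogenase of the last step, stood at 352, 288 and 799 CPM at 7 h, 269.9, 266 and 623 CPM at 12 h, and 291, 283 and 488 CPM at 25 h in sGFP. With PtrSND1-B1 it stood at 431, 316 and 895 CPM, 322, 291 and 660.3 CPM, and 283, 285 and 559 CPM. Replicate 3 was highest in every group, and at 25 h the other two lay between 283 and 291 CPM. From 7 to 25 h with the block CAD1 fell by 0.48 on the log2 scale with PtrSND1-B1 (SE 0.15, adjusted p = 0.0214), a call lost without replicate 1 or 3 at either 7 or 25 h. In sGFP the estimate was -0.33 (SE 0.15, adjusted p = 0.0967), and whether the constructs differ was tested by the difference of effects above, where CAD1 was not called. C3H3 had -0.16 and -0.30 (adjusted p = 0.533 and 0.222) in sGFP and PtrSND1-B1.

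Counted together, the block gave 4 of 8 genes called from 7 to 25 h in sGFP and 4 of 8 in PtrSND1-B1, 1 up and 3 down in each. Of all genes, 31.9% and 30.8% were called. From 7 to 12 h, 0 of 8 were called without a block (0.231% of all genes in sGFP and 0.206% in PtrSND1-B1) and 0 of 8 with it (6.45% and 7.18%). DESeq2, without a block, also called 0, and the unadjusted p was under 0.05 for 0 of 8 in both constructs without a block and for 0 in sGFP and 2 in PtrSND1-B1 with it. From 12 to 25 h, 0 of 8 were called without a block by edgeR (0.686% and 0.715%, with 0 and 1 at an unadjusted p under 0.05) or DESeq2, and in PtrSND1-B1 the block called 1 of 8, CAld5H2 (8.59% of all genes). In sGFP the numbers did not meet the rule for pairing these times. The median log2 fold change of the 8 from 7 to 25 h without a block was -0.25 in sGFP and -0.39 in PtrSND1-B1, against 0.00 and -0.01 for all genes.

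**Figure D3:**
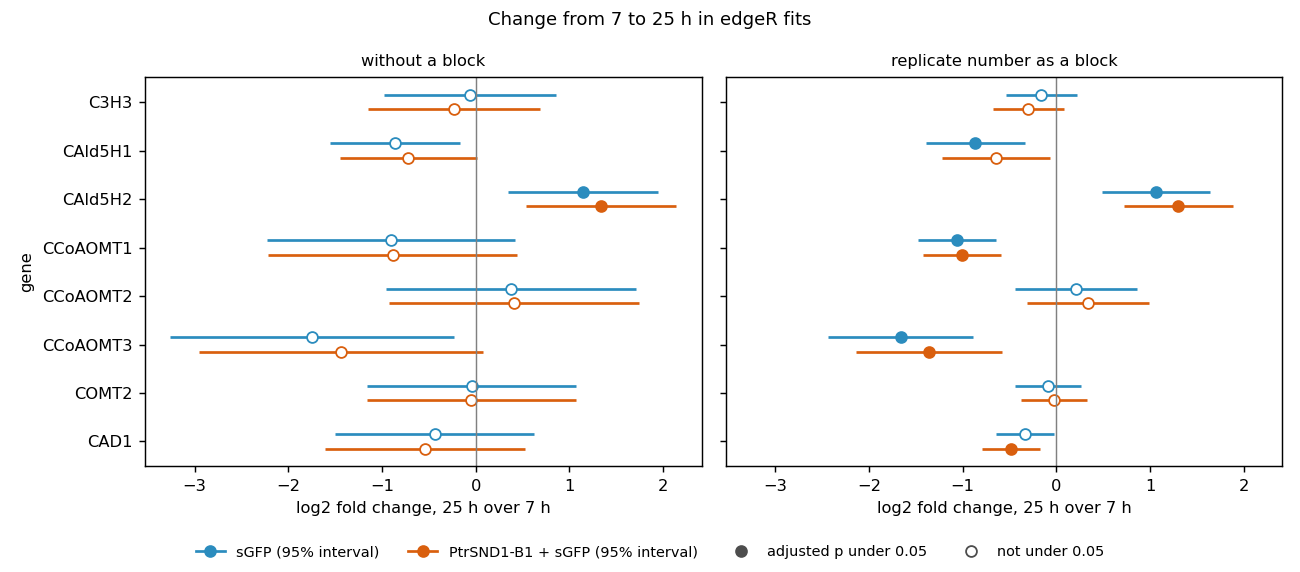
Log2 fold change from 7 to 25 h with its 95% interval for the 8 genes, in sGFP (blue) and PtrSND1-B1 with sGFP (orange), from the unblocked fit on the left and the number-block fit on the right. Filled circles have an adjusted p under 0.05 in edgeR: CAld5H2 alone on the left, and CAld5H2, CCoAOMT1 and CCoAOMT3 in both constructs, CAld5H1 in sGFP and CAD1 in PtrSND1-B1 on the right.

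The ratio between copies of the same enzyme was on average lower at 25 than at 7 h. Its tests between times were added after the values were seen, and none passed inside pairs after adjustment, as given below. Inside a library, the log2 ratio of CAld5H1 to CAld5H2 counts averaged -3.93 ± 0.32 (SD, n = 3) at 7 h, -4.85 ± 0.48 at 12 h and -5.81 ± 0.45 at 25 h in sGFP, and -4.10 ± 0.39, -4.45 ± 0.54 and -6.02 ± 0.32 with PtrSND1-B1. Every 25 h library lay below every 7 h library, with a mean difference of -1.89. An exact permutation test within constructs, two-sided, gave p = 0.005 (0.015 adjusted over the 6 ratio tests), the smallest that 400 exchanges can give. It exchanged the libraries of the 2 constructs separately, although libraries of the same time and number were alike in both. Its p may therefore be too small. The ratio did not differ detectably between constructs (0.01, exact permutation p = 0.961).

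For CCoAOMT1 over CCoAOMT2 the log2 ratio was 0.60, 0.76 and 0.55 in sGFP replicates 1 to 3 at 7 h, and -0.45, -0.49 and -0.78 at 25 h. With PtrSND1-B1 it was 0.58, 0.77 and 0.58 at 7 h, and -0.55, -0.80 and -0.70 at 25 h. The more abundant count was CCoAOMT1 in all 7 h libraries and CCoAOMT2 in all 25 h libraries. At 12 h replicate 3 kept a positive ratio, 0.49 in sGFP and 0.41 with PtrSND1-B1, while replicates 1 and 2 lay at -0.27 to -0.06. The difference of -1.27 between 25 and 7 h had p = 0.005 (exact permutation, the smallest possible, 0.015 adjusted). It lay between -1.30 and -1.22 when any library of those times was left out. The limit on the p given for the CAld5H ratio holds here too. The constructs differed by -0.08 (exact permutation p = 0.435).

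CCoAOMT3 over the sum of CCoAOMT1 and CCoAOMT2 was lower at 25 than at 7 h, with a log2 difference of -1.15 (exact permutation p = 0.015, 0.030 adjusted), with overlapping libraries. With exchanges confined to pairs of the same construct and number, the p of that difference was 0.0625, and the p of both other copy ratios was 0.03125, the smallest that 64 exchanges can give. Adjusted over the 6 tests inside pairs, these were 0.09375 and, for the other 2, 0.0625, so none passed. All these tests between times, with or without pairs, exchanged the 2 constructs separately, so the limit given above applies to each. PtrSND1-B1 libraries had a higher CCoAOMT3 share by 0.37 (exact permutation p = 0.287, and p = 0.0117 with exchanges inside pairs, 0.0625 adjusted over the 6). A ratio shows unequal change and not which copy moved. The tests between times were added after the values were seen, and how reads shared by close copies were counted is not given in the sources used here, so the copies' separate values are uncertain.

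**Figure D4:**
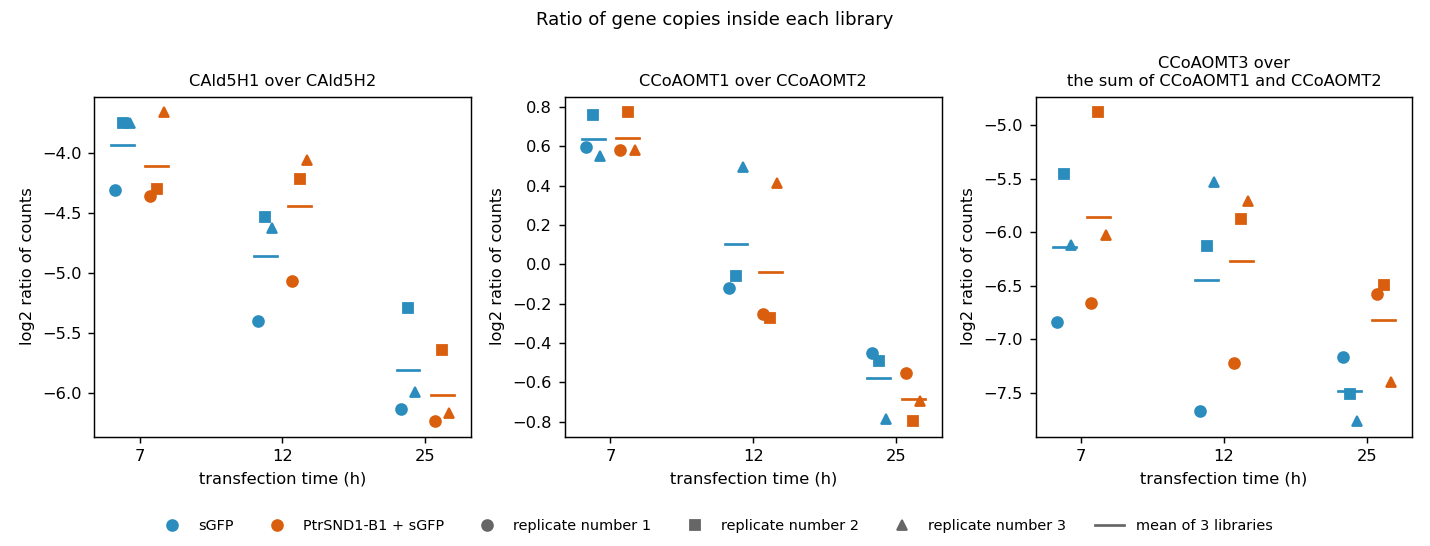
Log2 ratio of counts of gene copies inside each library against transfection time in hours, for CAld5H1 over CAld5H2, CCoAOMT1 over CCoAOMT2 and CCoAOMT3 over the sum of the other two. Symbols are libraries (colour for construct, shape for replicate number) and bars are means of 3; the first 2 ratios fall from 7 to 25 h with no overlap, from 0.55 or above to -0.45 or below for CCoAOMT1 over CCoAOMT2.

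The replicate number moved with the level of most of the 8 genes. Number 3 was highest in all 6 groups for C3H3, CCoAOMT1, CCoAOMT3, COMT2 and CAD1, 5 of 8 genes, compared with 8.59% of all genes tested. Number 2 was lowest in all 6 for C3H3, CCoAOMT1, CCoAOMT2 and COMT2, but the share of all genes doing so was not counted. The median difference of number 3 over number 2 was 1.61 on the log2 scale for CCoAOMT2, 1.52 for CCoAOMT1, 1.35 for COMT2, 1.20 for CAD1, 1.09 for CCoAOMT3 and 0.97 for C3H3. It was 0.48 for CAld5H2 and 0.43 for CAld5H1, the copies that add the syringyl hydroxyl group. For C3H3, COMT2, CCoAOMT2 and CAD1 these differences exceeded their changes between times. What the numbers stand for is not in the labels.

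**Figure D5:**
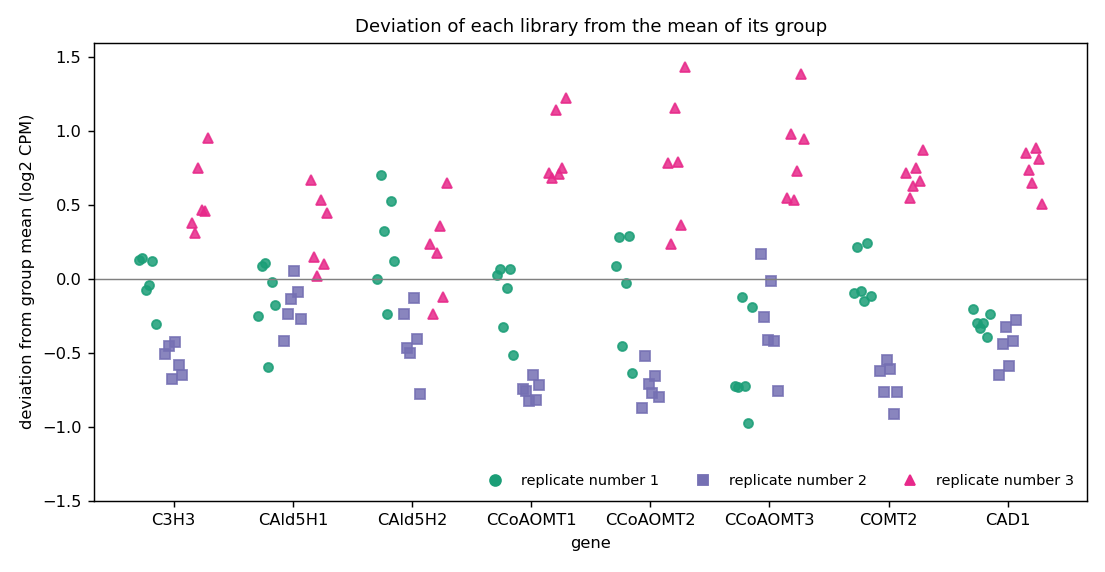
Deviation of each library from the mean of its group in log2 CPM for the 8 genes, coloured by replicate number, with 6 libraries per number. Number 3 lies above the others in every group for C3H3, CCoAOMT1, CCoAOMT3, COMT2 and CAD1, and number 3 is above number 2 in every group for CAld5H1 and CAld5H2 too, by less.

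Across the 18 libraries, likeness was measured as the root mean square difference of centred log2 CPM, as a description only, since the points share replicate numbers and times. COMT2 was the 21st closest of 23776 other genes to C3H3 (0.24), and C3H3 was the 6th closest to COMT2. For CCoAOMT2, COMT2 ranked 31st (0.33) and C3H3 34th (0.35). The copies of an enzyme were less alike than these. CCoAOMT2 ranked 574th for CCoAOMT1 (0.55, median of all genes 0.92). For CCoAOMT3, CCoAOMT1 ranked 304th (0.62) and CCoAOMT2 9744th (0.98, median 1.02). CAld5H2 ranked 19523rd for CAld5H1 (0.86, median 0.60). The low counts of CAld5H1 and CCoAOMT3 limit what their distances show. The closest genes overall were POPTR_0014s11000.1 for C3H3 (0.16), POPTR_0001s04440.1 for CAld5H1 (0.19), POPTR_0015s05980.1 for CAld5H2 (0.18), POPTR_0002s03580.1 for CCoAOMT1 (0.25) and POPTR_0001s07400.1 for CCoAOMT2 (0.21). For CCoAOMT3, COMT2 and CAD1 they were POPTR_0008s01310.1 (0.36), POPTR_0002s10990.1 (0.21) and POPTR_0018s02960.1 (0.17). The second closest, in the order of the 8 genes as first listed, were POPTR_0019s05430.1 (0.17), POPTR_0002s23820.1 (0.22), POPTR_0019s08090.1 (0.25), POPTR_0010s12360.1 (0.26), POPTR_0003s17980.1 (0.21), POPTR_0019s15190.1 (0.37), POPTR_0002s24400.1 (0.21) and POPTR_0015s15290.1 (0.19).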

How the data were processed

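The deposited file holds raw counts per gene model made by the authors, with a column per library, per the file header. The submitters' processing notes list TopHat and edgeR, with no version or role. Not given in the sources used here: genome build, counting tool and strandedness. The first model of each of 40668 loci (of 45033 models) was used. The 8 genes, their names and the lists were chosen with earlier results of these data known. Named were the 8 genes, the transfected gene and, for each of the 8, the 2 closest genes.

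Counts were fitted for the whole table with edgeR 4.0.16 (R 4.3.3): TMM scaling (factors 0.797 to 1.09), filterByExpr by the 6 groups, a quasi-likelihood F test and Benjamini-Hochberg adjustment over 23777 genes, called at an adjusted p under 0.05. The SE is the log2 fold change over the square root of F. Log2 CPM used a prior count of 2, and ratios added 0.5 to each count. DESeq2 1.42.0 was an alternative. The fits were tested on simulated data.

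Replicate numbers were taken to pair libraries where deviations from group means correlated above 0.1 in every number. Correlations were 0.345 to 0.752 between constructs and 0.102 to 0.653 between times, except in sGFP between 12 and 25 h (0.0555 for number 1). Between 7 and 25 h they were 0.145 to 0.327 in sGFP and 0.102 to 0.368 in PtrSND1-B1. Number 1 was lowest in both, close to the limit of 0.1. The number block was fitted over all 18 libraries, so it also covered the sGFP times that did not meet the rule. The labels do not state this pairing. No columns were identical, and libraries of a group differed beyond sampling noise (chi-square per degree of freedom 5.88 to 46.8). The lists of other pathway genes and of tissue markers rest on gene descriptions, and 0 identifiers of the file's kind matched the reference table, so neither was evaluated and the labelled tissue was not checked against markers. For the same reason no sequences are given.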

Additional observations from a re-analysis of the deposited data

How the results depend on the processing

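Without a block, 0 of the 8 genes were called for PtrSND1-B1 against sGFP under each scaling, filter, model choice, DESeq2 and left-out library. The replicate block inside each time (the paired fit) gave 1 gene at 7 h and 1 as the mean of the times. Leaving out a pair gave 0 to 1 at 7 h (1.03 to 6.36% of all genes) and 1 to 3 as the mean (4.92 to 8.16%), 3 without replicate 3 at 25 h (8.16%). With the replicate number as a block, 25 against 7 h gave 4 genes in sGFP (3 to 5 when a library was left out) and 4 with PtrSND1-B1 (2 to 4, the 2 without PtrSND1-B1 25 h replicate 3), and 25 against 12 h gave 1 with PtrSND1-B1. For sGFP at 25 against 12 h the numbers did not meet the pairing rule, and the block gave 2, CCoAOMT1 (-0.67, adjusted p = 0.0432) and CCoAOMT3 (-1.32, adjusted p = 0.0312), with 9.34% of all genes called. Without a block, sGFP at 25 against 7 h gave 2 with library size only, 0 with only the groups compared, and 0 to 1 when a library was left out. PtrSND1-B1 gave 0 to 1. With exchanges inside pairs, the CCoAOMT3 ratio had p = 0.0117 between constructs (0.37, exact permutation, 0.0625 adjusted over 6 tests) and p = 0.0625 between 25 and 7 h (-1.15, 0.09375 adjusted). The other 2 ratios between 25 and 7 h had 0.0625 after adjustment and no longer passed. Both had the smallest p that 64 exchanges can give (0.03125), so with the other tests as they were they could not pass. The block changed no other call of a comparison. Of 422 single-gene values under alternative settings (those added later aside), 401 kept their side of the threshold, 11 came to pass it and 10 no longer did, 0 reversed while called, and 34 changed sign without being called. The causes were not tested. In each of the 18 libraries the best match in the other construct had the same number. Counts of 12 to 87 (CAld5H1) and 2 to 71 (CCoAOMT3) limit those genes.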
